A study of Rattus norvegicus with 12 samples.

Results

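Dusp1, Nfkbia and Tsc22d3 encode 3 proteins that restrain inflammatory and stress signalling, and their loci were described here in the hippocampus of adrenalectomised rats given corticosterone or vehicle. The loci were taken by position: every assembled gene of the deposited table with exactly the start and end of the locus on chromosome 10 at 16970179 to 16973782 (Dusp1), on chromosome 6 at 76266869 to 76270678 (Nfkbia) or on chromosome X at 111884244 to 111943904 (Tsc22d3). This gave 8 of the 58341 assembled genes, 1 for Dusp1, 1 for Nfkbia and 6 for Tsc22d3. The loci were picked with their response to corticosterone already known, so the difference between the groups is described and not tested. None of the assembled genes carries a gene symbol, and the names rest on the positions alone. The coordinates are those of the table and are best read as the rat build rn6 (Rnor_6.0).

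The animals were male Sprague-Dawley rats, 8 weeks old, and both groups had lost their adrenal glands, the source of corticosterone. One group of 6 was given corticosterone at 300 µg/kg and the other group of 6 the vehicle, and hippocampi were taken 1 h later. The table holds 1 pooled value per group in FPKM, fragments scaled for transcript length and sequencing depth, so no spread between animals and no sequencing depth is known and no SD can be given. In whole hippocampus, fewer cells of a type and less RNA per cell cannot be told apart. Adrenalectomy with replacement shows a response from a background without adrenal hormone, and no group with intact adrenals was analysed here. The tissue label could not be checked against marker genes, since 0 of 24 markers could be matched by symbol.

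Corticosterone enters cells and binds the glucocorticoid and mineralocorticoid receptors, both of which the hippocampus expresses, and the bound receptors act as transcription factors on glucocorticoid response elements in DNA. Among their known targets are genes whose products feed back on other pathways. Dusp1, also called MKP-1, is a nuclear phosphatase that inactivates the MAP kinases p38, JNK and ERK. Nfkbia encodes IκBα, which holds NF-κB in the cytoplasm until it is phosphorylated and degraded, and the gene is itself induced by NF-κB. Tsc22d3, also called Gilz, encodes a leucine zipper protein that binds NF-κB and AP-1 and limits their activity.

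The positions were compared with the RefSeq annotation of another rat assembly, GRCr8, by chromosome name and length only. The Dusp1 locus spans 3604 bp and the RefSeq gene 2794 bp, on chromosome 10 in both. The Nfkbia locus spans 3810 bp against 3464 bp for the gene, on chromosome 6 in both. The Tsc22d3 locus, with 59661 bp against 59980 bp on chromosome X, came closest in length. The numbers that the authors' assembly gave its genes run in 3 ascending series along each of these chromosomes. The most abundant gene at the Dusp1 locus belongs to the first series, and those at the Nfkbia and Tsc22d3 loci to the second. RefSeq places Dusp1 on the plus strand and the other two genes on the minus strand. No source used here says whether the series stand for strands. These comparisons could hardly have gone against the names. The positions were taken as those of the named genes, no limit was set for length, and the series are not tied to strands. They are thus not read as support for the names.

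RefSeq start sites of these genes in GRCr8 were searched for motifs over the 250 bases before each start, on both strands, because the 3 loci were all higher with corticosterone. The promoter table holds 1 start for Dusp1, 1 for Nfkbia and 3 for Tsc22d3. The Dusp1 stretch is shown whole, on the plus strand at chr10:17184603-17184852, with a full cAMP response element (TGACGTCA) and an E-box (CACGTG) in capitals. For the other two genes 30 bases around the match are shown, a kB motif in capitals for Nfkbia, on the minus strand at chr6:78597084-78597113, and a TATA box (TATAAA) in capitals for the third and most downstream Tsc22d3 start, on the minus strand at chrX:109010061-109010090. The Dusp1 stretch ends at the base before the start, and the windows end 12 and 27 bases before theirs.
Dusp1: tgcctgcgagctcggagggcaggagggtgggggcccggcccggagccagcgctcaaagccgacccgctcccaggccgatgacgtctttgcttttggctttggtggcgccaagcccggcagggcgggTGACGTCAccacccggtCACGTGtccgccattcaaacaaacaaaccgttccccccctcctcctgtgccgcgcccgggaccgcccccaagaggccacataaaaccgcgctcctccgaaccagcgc
Nfkbia: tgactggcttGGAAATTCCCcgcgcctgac
Tsc22d3: tggctcctcctaTATAAAgaagcaggagcc

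Matches were found before the Dusp1 start, the Nfkbia start and the third Tsc22d3 start, and the first and second Tsc22d3 starts had none of the motifs searched. The full cAMP response element, the binding site of CREB, lies 124 to 117 bases before the Dusp1 start and is present before 1.59% of the 33469 RefSeq starts searched in the same way. A further half-site of that element (TGACG, which is also part of the full element) lies 172 to 168 bases before the Dusp1 start, and 2 lie before the third Tsc22d3 start. At least 1 such half-site is present before 18.2% of all starts. The E-box lies 107 to 102 bases before the Dusp1 start, and 5.59% of starts have one. The kB motif, the binding site of NF-κB, lies 31 to 22 bases before the Nfkbia start, read on the opposite strand, and 6.33% of starts have one. The TATA box of the third Tsc22d3 start lies 44 to 39 bases before it and 12.9% of starts have one. Neither the full glucocorticoid response element (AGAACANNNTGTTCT), nor a looser form that every full element also matches (GNACANNNTGTNC), nor the half-site AGAACA, part of the full element, was found in any of the 5 windows. These letters are present before 0.012%, 0.373% and 17.5% of all starts, respectively. This says only that the letters are not in these short windows of GRCr8.

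All 8 assembled genes had higher values with corticosterone than with vehicle, and they fell into an abundant and a sparse class. The genes of the abundant class, 1 at each locus, lay between 3.72 and 19.5 FPKM with vehicle and between 6.00 and 26.2 FPKM with corticosterone. The other 5, all at the Tsc22d3 locus, lay between 0.302 and 0.419 FPKM with vehicle and between 0.764 and 1.01 FPKM with corticosterone. The authors' Cuffdiff run tested 6 of the 8 and called 4 of these different, all higher, by the threshold of the authors' deposited table (q up to 0.05). Among all 42839 tested assembled genes 0.345% were called in either direction and 0.271% were called higher. As the loci were picked on this comparison, nothing is read from these shares.

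**Figure D1:**
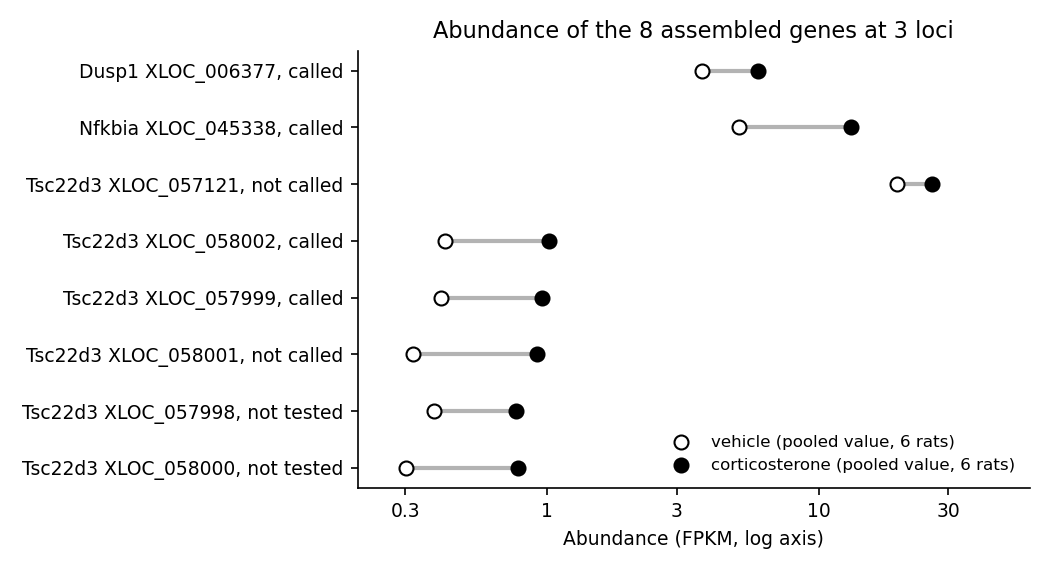
Abundance of the 8 assembled genes in FPKM on a log axis, with open circles for vehicle and filled circles for corticosterone, each the pooled value of 6 rats, so there are no error bars. All 8 filled circles lie to the right of the open ones, and the 5 sparse Tsc22d3 genes lie at or below 1.01 FPKM.

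The Dusp1 locus is a single assembled gene, XLOC_006377, of modest abundance and with the smallest fold of the called genes described here. It had 3.72 FPKM with vehicle and 6.00 FPKM with corticosterone. Corticosterone was thus 1.61-fold higher, or 0.69 on the log2 scale, with Cuffdiff p = 5e-05 and q = 0.0165 in the authors' deposited table. Its mean over both groups exceeded that of 76.1% of tested assembled genes, and 803 tested genes had a larger increase in FPKM than its 2.27. Among the 93 loci called higher with both values above 0, Dusp1 ranked 43 by fold, close to their median of 1.57-fold in the authors' deposited table. The size of its change was thus near the middle of these called loci. Each locus stood with its most abundant gene called higher, so Tsc22d3 entered with the 2.41-fold of a sparse gene. Tested genes that sparse with vehicle all had a large fold, as given below, so the ranks depend on which genes were tested. The authors' separate list of 122 different transcripts holds none with exactly the start and end of this locus. Listed transcripts with other ends were not searched for, here or at the other loci.

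The Nfkbia locus is likewise a single assembled gene, XLOC_045338, and it had the largest fold among the 3 most abundant genes of these loci. Its value was 5.07 FPKM with vehicle and 13.2 FPKM with corticosterone. This is 2.59-fold higher, or 1.38 on the log2 scale, with the same Cuffdiff p of 5e-05 and q of 0.0165 in the authors' deposited table. That p is the smallest in the table and is shared by 130 tested genes, so Nfkbia and Dusp1 cannot be ranked by it. Nfkbia ranked 10 by fold among the 93 loci called higher, counted in the same way and with the same limit. In FPKM the increase was 8.09, and 116 tested genes had a larger one. The authors' transcript list holds 1 transcript with exactly this start and end. It has the higher of the list's 2 codes, which no source used here explains.

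Nfkbia thus exceeded Dusp1 in FPKM, a measure per length, in both groups, and the levels stood further apart with corticosterone than with vehicle. With 1 value per group, neither this difference in level nor the difference in fold between the loci could be tested.

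**Figure D2:**
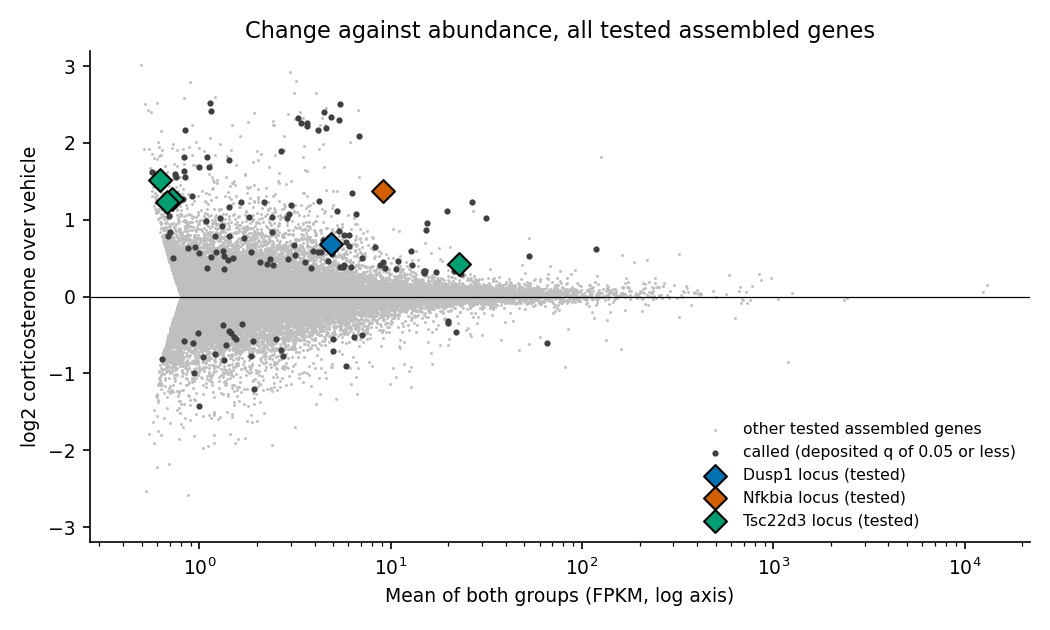
Log2 of corticosterone over vehicle against the mean of both groups in FPKM (log axis) for the 42836 tested assembled genes with both values above 0, of which 7 lie beyond the vertical limits; dark points were called by the authors' q and diamonds are the 6 tested genes of the 3 loci. The abundant Tsc22d3 gene lies at a log2 change of 0.42, below Dusp1 at 0.69 and Nfkbia at 1.38.

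The Tsc22d3 locus is an abundant gene with a small difference together with 5 sparse genes with larger ones. The abundant gene, XLOC_057121, had 19.5 FPKM with vehicle and 26.2 FPKM with corticosterone, a log2 difference of 0.42 or 1.34-fold by the authors' deposited table. Cuffdiff did not call it, with p = 0.00045 and q = 0.103 in the authors' deposited table. It was nevertheless the most abundant of the 8 in both groups, and its mean exceeded that of 95.4% of tested genes. Its increase of 6.68 FPKM was above that of Dusp1 and below that of Nfkbia, so that the order by fold and the order by increase in FPKM differ. The order of the levels, Tsc22d3 above Nfkbia above Dusp1, was the same in both groups.

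The abundant Tsc22d3 gene lies outside the authors' threshold, and other uncalled genes lie closer to it. The largest p among called genes in the authors' deposited table was 0.00015 (q = 0.0434), and the smallest among tested genes not called was 0.0002 (q = 0.0546). There were 39 uncalled genes with a p of 0.00045 or less, this one included. Of the 5000 tested genes that averaged 10 FPKM or more over both groups, 36 had a log2 fold change at least as large as that of the abundant Tsc22d3 gene, and 9 of the 36 were called. By the authors' deposited table, these 5000 had a median log2 difference of 0.027.

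The sparse genes at the Tsc22d3 locus had similar levels and similar folds. XLOC_058002 had 0.419 FPKM with vehicle and 1.01 FPKM with corticosterone, 2.41-fold, and XLOC_057999 had 0.406 and 0.955 FPKM, 2.35-fold, in the authors' deposited table. Both were called, each with q = 0.0165 by Cuffdiff in the authors' deposited table. The third tested one, XLOC_058001, had the largest fold of the 5 but was not called. It had 0.320 and 0.919 FPKM, 2.87-fold, with p = 0.0158 and q = 0.999 by Cuffdiff in the authors' deposited table. The untested XLOC_057998 was listed at 0.381 FPKM for vehicle and 0.764 FPKM for corticosterone, 2.00-fold, and XLOC_058000 at 0.302 and 0.781 FPKM, 2.59-fold, in the authors' deposited table. Among these sparse genes the size of the fold thus did not follow the call. The authors' transcript list holds 2 transcripts with exactly the start and end of this locus, both with the higher code. It does not say to which of the 6 assembled genes they belong.

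The 3 tested sparse genes lay above the lowest higher-group FPKM of any tested gene only in the corticosterone group. Every tested gene in the table had at least 0.802 FPKM in its higher group, and the vehicle values of all 5 sparse Tsc22d3 genes were below that. The 3 tested ones had 0.919 FPKM or more with corticosterone, and the untested ones 0.781 FPKM or less. Among all assembled genes, those marked as not tested reached 1.07 FPKM in their higher group, so FPKM alone did not decide testing. Over all entries, 2311 assembled genes had a vehicle value between 0.302 and 0.419 FPKM and a corticosterone value above 0, of which 83 were tested, and the smallest fold among these 83 was 1.96. A tested gene this sparse with vehicle thus had to be much higher with corticosterone, and the calls among the sparse genes are not read as support. Without regard to testing, the 2311 genes had a median of 1.12-fold and 144 of them (6.23%) were at least 2-fold higher in the authors' deposited table. All 5 sparse Tsc22d3 genes were at least 2-fold higher. They share the same locus, which was picked for its response, so nothing is read from this share either.

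The abundant gene held most of the summed FPKM of the locus. Summed over its 6 assembled genes, the Tsc22d3 locus had 21.4 FPKM with vehicle and 30.6 FPKM with corticosterone, 1.43-fold. The 5 sparse genes together had 1.83 FPKM with vehicle and 4.43 FPKM with corticosterone, 2.42-fold. They made up 8.56% of the summed vehicle level and 14.5% of the summed corticosterone level, but 28.0% of the summed increase of 9.28 FPKM. Each of the 5 contributed between 0.383 and 0.599 FPKM of that increase. No source used here says how the fragments of a locus were divided among its assembled genes, so the sum is a description. FPKM is scaled for transcript length, and the transcript lengths of the 6 genes are not known here. The shares are thus shares of summed FPKM and not of RNA amount or of fragments.

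**Figure D3:**
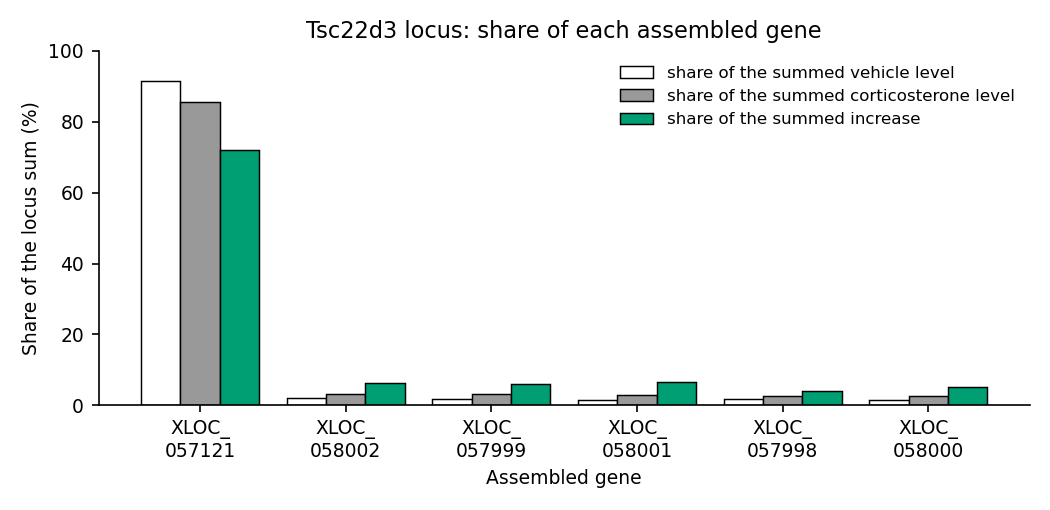
Share in percent of each of the 6 assembled genes in the summed FPKM of the Tsc22d3 locus with vehicle (white), with corticosterone (grey) and in the summed increase (green). XLOC_057121 holds 91.4% of the vehicle level, the sparse genes together 28.0% of the increase, and each sparse gene holds a larger share of the increase than of either level.

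The sparse genes also differed from the abundant one in their place in the assembly. Their numbers are consecutive, from XLOC_057998 to XLOC_058002, and belong to the third ascending series of chromosome X, whereas the abundant gene belongs to the second. On chromosomes 6, 10 and X together the third series holds 5599 assembled genes with a median mean of 1.01 FPKM, of which 64.7% were tested. The first and second series hold 2431, with a median of 5.16 FPKM, of which 92.5% were tested. The table gives all 6 genes of the Tsc22d3 locus the same start and end, so where each lies within the locus is not known here.

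The gap between the abundant and the sparse genes of the Tsc22d3 locus is given beside that of other loci as a description. The median log2 fold change of the 5 sparse Tsc22d3 genes exceeded that of the abundant gene by 0.85 in the authors' deposited table. Over the 2691 loci with at least 3 assembled genes besides the most abundant, tested or not, the same difference had a median of -0.029 and quartiles of -0.13 and 0.077, and 19 loci, Tsc22d3 included, reached 0.85. These loci were not matched for such low FPKM, and Tsc22d3 was picked for its response, so nothing is read from its place among them. Of the 126 loci with a called gene, 12 had a most abundant tested gene that was not called, as at Tsc22d3. At 10 of these 12 loci all called genes were higher. Most called genes were higher in any case, 116 of all 148, so nothing is read from that count. In number of genes the 3 loci also differ: 78.3% of all loci hold a single assembled gene, as Dusp1 and Nfkbia do, and 6.98% hold 6 or more, as Tsc22d3 does.

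The nearest assembled loci were close to equal between the groups. For each of the 3 loci the nearest 2 on each side were taken, 12 in all, between 53.2 and 367 kb away. None of their 22 tested genes was called. With only 0.345% of all tested genes called in either direction, nothing is read from that count. The most abundant gene was tested at 11 of the 12, with log2 fold changes between -0.077 and 0.12 in the authors' deposited table, 6 of them above 0. The smallest p among all 22 was 0.255 in the authors' deposited table, and the q of each most abundant gene was 0.999. Around Dusp1, all 4 values were slightly above 0, from 0.034 to 0.12 in the authors' deposited table, with Dusp1 itself at 0.69. The 3 tested most abundant genes around Nfkbia were slightly below 0, from -0.077 to -0.048. Around Tsc22d3 the values lay between -0.020 and 0.063, on either side of 0.

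The closest neighbours differed in level. That of Nfkbia lies on chromosome 6 at 76187907 to 76205434, 61.4 kb from Nfkbia, and had 21.1 FPKM with vehicle and 20.2 FPKM with corticosterone. The closest neighbour of Tsc22d3, on chromosome X at 111798031 to 111820268 and 64.0 kb away, had 17.2 and 17.0 FPKM, a level similar to that of the abundant Tsc22d3 gene. The closest neighbour of Dusp1, on chromosome 10 at 16902704 to 16916929, was sparse, with 1.15 and 1.19 FPKM.

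**Figure D4:**
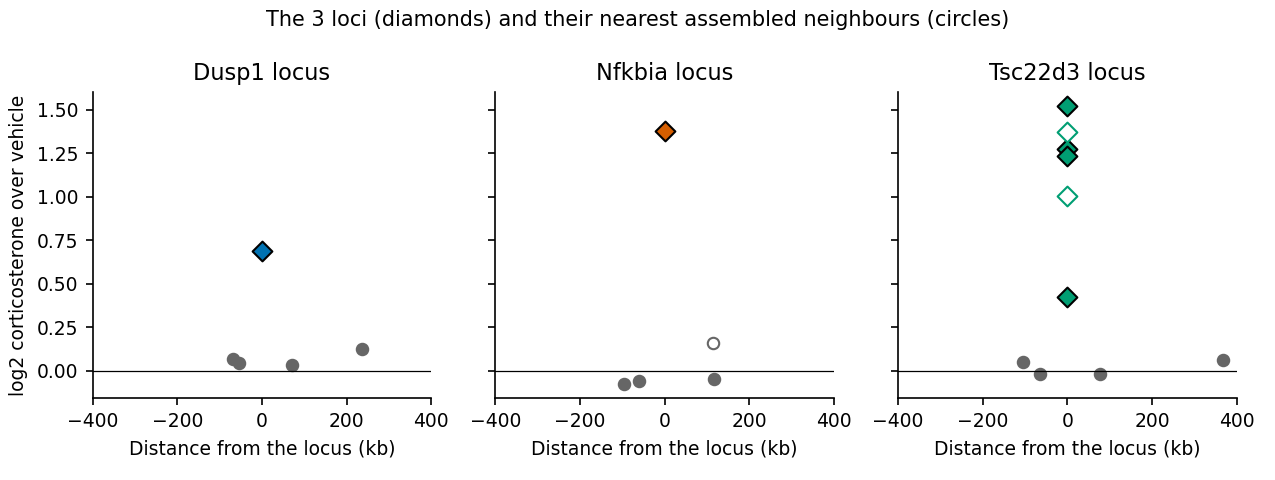
Log2 of corticosterone over vehicle against the distance in kb from each locus for the assembled genes of the 3 loci (diamonds at 0) and the most abundant gene of the nearest 2 loci on each side (circles), with open symbols for untested genes. The tested circles lie between -0.077 and 0.12, and the lowest diamond, the abundant Tsc22d3 gene, at 0.42.

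Other genes of these families could not be added. A list of 32 further genes, among them other MAP kinase phosphatases, IκB and NF-κB proteins and TSC22 proteins, matched 0 assembled genes, because the table carries no symbols.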

How the data were processed

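Hippocampal RNA of 12 rats was sequenced and deposited by the authors as 1 gene table and 1 transcript list. The submitters' processing notes name Cuffdiff 2.2.1.3, Cufflinks 2.2.1.0, TopHat 0.9 and Bowtie2 0.6 with build rn5. Scaffold names in the table are of rn6, and no source used here gives the scaling, dispersion model or strand setting. Per the file headers, the deposited values are FPKM per assembled gene and group, a log2 fold change of Control over Cort, a test score (not used) and p-values and q-values. Cort was read as the corticosterone titles and Control as the vehicle titles; the treated samples' source names say cortisone instead. The sign of the log2 change was turned; it matched the ratio of the values within 0.001 for 58263 of 58271 genes with both values above 0, and the other 8 were marked failed. The score codes of the transcript list are the authors'.

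Members and lists were chosen with earlier results of these data known. The named genes are those at the 3 loci, the nearest 2 loci on each side and listed genes matched by symbol. No new test was run: with 1 pooled value per group there is no replicate error, and depth per sample is unknown. RefSeq promoters (GRCr8) matched all 3 genes by symbol. Calculations used Python 3.11.15 with pandas 2.3.3. The recentred log2 change and the Benjamini-Hochberg adjustment were checked on simulated data, and the other calculations were not.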

Additional observations from a re-analysis of the deposited data

How the results depend on the processing

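Nfkbia, Dusp1 and the most abundant Tsc22d3 gene were higher with corticosterone under every alternative tried, but a pseudocount or a sum of higher values cannot turn a direction. The log2 fold change of Dusp1 was 0.69 as deposited, 0.67 and 0.57 with pseudocounts of 0.1 and 1 FPKM, and 0.68 when recentred on the median of tested genes (0.007). That of Nfkbia was 1.38, 1.36, 1.22 and 1.37. That of Tsc22d3 was 0.42, and 0.41 with a pseudocount of 1; the sum of its 6 genes gave 0.52, and the median over its tested genes, like that over all 6, gave 1.25, because the sparse genes then outnumber the abundant one. Benjamini-Hochberg adjustment of the deposited p over genes averaging 1 FPKM or more, or over the most abundant tested gene of each locus, moved no locus across the threshold; for Tsc22d3 the adjusted p was 0.105 and 0.0526. A q of 0.10 or less kept 4 calls at the 3 loci, of 178 among all 42839 tested genes. An added change of at least 1.5 times, chosen after seeing the data, also kept 4, of 93 in all. A q of 0.01 or less left 0 at the loci and 0 in all, because the smallest q is 0.0165. At the loci 6 genes had an unadjusted Cuffdiff p of 0.05 or less, as had 1253 in all. Leaving out genes with a mean under 1 FPKM left 2 calls, Dusp1 and Nfkbia, of 121 in all. That setting removes the sparse Tsc22d3 genes. As the loci were picked on this comparison, nothing is read from these counts. No paired analysis was possible because the table pools the 6 animals of a group, and leaving out animals was not run for the same reason.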
